A study of Mus musculus with 8 samples.

Results

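Broad domains, here the called peaks of 5 kb or more in the wild-type list of a ChIP-seq series on mouse chondrocytes, numbered 701 of 28057 wild-type peaks (2.50%). They were chosen by their length alone, so their lengths describe the choice and are not a result. Together they spanned 4.83 Mb of the 40.5 Mb under all wild-type peaks (11.9%). Their median length was 6062 bp (interquartile range 5447 to 7415 bp), and the whole range ran from 5001 to 34271 bp. Of the 701, 57 reached 10 kb, 8 reached 15 kb and 4 reached 20 kb. The peaks just under 5 kb lay at Fscn1 (4998 bp), Alkbh5 (4998 bp) and Tmed2 (4999 bp). Those just over it lay at Gmppb, Rnf123, Amigo3 and Ip6k1 (5001 bp, shared), at Eif4e2 (5002 bp) and at Stag2 (5004 bp).

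The cells were chondrocytes, the cells of cartilage, grown in DMEM with 10% serum. The groups were wild type and the knockouts Ezh2-cKO, Utx-cKO and Jmjd3-cKO, where cKO is a conditional deletion of the named gene, and the stated aim was to compare the level of H3K27me3 between them. Each of the 4 genotypes had 1 library immunoprecipitated for H3K27me3 and 1 input library, 8 in all, and only the 4 peak lists were analysed. The labels used here name neither the Cre driver nor the age of the animals. With 1 library per genotype no difference between genotypes has a replicate check, no test between genotypes was made, and values given for a knockout are those of its peak list. The 95% Wilson intervals in parentheses cover counting error over domains only. Title prefixes differ between the wild-type, Ezh2-cKO and demethylase knockout libraries, and Utx-cKO and Jmjd3-cKO share theirs. Genotype and library batch therefore cannot be told apart in any comparison with wild type. After duplicate removal the immunoprecipitated libraries held 25655346 (Jmjd3-cKO) to 34786292 (Ezh2-cKO) fragments. The lists held 28057 peaks over 40.5 Mb in wild type, 33739 over 48.1 Mb for Ezh2-cKO, 49405 over 74.3 Mb for Utx-cKO and 27013 over 41.4 Mb for Jmjd3-cKO. Peaks come from whole cell populations, so a shorter peak and a long peak present in fewer cells cannot be told apart.

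Trimethylation of histone H3 at lysine 27 (H3K27me3) is laid down by Polycomb repressive complex 2, whose catalytic subunit is usually Ezh2. Utx (Kdm6a) and Jmjd3 (Kdm6b) are the demethylases that remove it. The mark is known for spreading as long blankets over silent developmental genes, above all the Hox clusters. Domains of several kb also form in other histone marks: long stretches of H3K4me3, for example, are known over the promoters of cell identity genes and of strongly transcribed genes. The labels name H3K27me3, and which mark the peaks reflect was not tested here.

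The domains held 29 microRNA genes, on 25 domains, and the RefSeq table (GRCm38.p6) gave a mature sequence for 27 of them. A selection, made after the list was seen, is shown, 5′ to 3′, with the seed (bases 2 to 8), the stretch that pairs with target messages, in capitals. It was made because miR-140 is a cartilage microRNA and because miR-199a-3p with miR-199b-3p, and miR-196a-5p with miR-196b-5p, share a seed although they sit under different domains. The others share a host region with these or, as let-7i, lie outside protein-coding genes.
miR-140-3p: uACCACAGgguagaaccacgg
miR-199a-3p: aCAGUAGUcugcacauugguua
miR-199b-3p: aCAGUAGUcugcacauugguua
miR-199a-5p: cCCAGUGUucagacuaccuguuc
miR-214-3p: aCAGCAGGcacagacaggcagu
miR-196a-5p: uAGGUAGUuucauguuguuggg
miR-196b-5p: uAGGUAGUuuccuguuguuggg
let-7i-5p: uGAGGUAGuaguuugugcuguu

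Mir140, a microRNA made in chondrocytes and needed for normal cartilage, lies within Wwp2, and the domain there spanned chr8:107543931-107558052 (14122 bp). This domain was fully covered in Ezh2-cKO and Utx-cKO and covered over 92.0% in Jmjd3-cKO, in 1 piece in each list. Mir199a-2 and Mir214 share a domain of 9576 bp inside Dnm3, at chr1:162216539-162226114, which was covered over 100%, 100% and 99.4% in Ezh2-cKO, Utx-cKO and Jmjd3-cKO. Mir199b, with the same 3p sequence as Mir199a-2, lay under a second domain of 5028 bp at Dnm1. Mir196a-2 and Mir196b, which share their seed, lay under the longest Hoxc and Hoxa domains. Mirlet7i lay under a domain of 5447 bp outside protein-coding genes, with a fold enrichment over input of 15.6. In all 25 domains with a microRNA gene, as in all others, each knockout list held at least 1 overlapping peak.

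Promoter sequence was looked up for the 3 longest domains, for Col2a1 and Sox9, and for the domain with the lowest cover over the knockouts. It was found for Nfix, whose longest domain holds 4 annotated internal starts, and for Rfesd. The 250 bases before 1 start of each are shown on the gene's strand, with every CpG in capitals, because the Nfix domain was one of the longest and the Rfesd domain one of the least covered.
Nfix, minus strand, chr8:84780083-84780332 (GRCm38.p6): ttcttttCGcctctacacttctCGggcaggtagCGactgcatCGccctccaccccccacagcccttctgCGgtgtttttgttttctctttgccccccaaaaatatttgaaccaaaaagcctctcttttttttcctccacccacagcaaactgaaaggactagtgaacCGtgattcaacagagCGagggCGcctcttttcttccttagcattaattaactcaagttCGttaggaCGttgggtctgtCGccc
Rfesd, minus strand, chr13:76018607-76018856 (GRCm38.p6): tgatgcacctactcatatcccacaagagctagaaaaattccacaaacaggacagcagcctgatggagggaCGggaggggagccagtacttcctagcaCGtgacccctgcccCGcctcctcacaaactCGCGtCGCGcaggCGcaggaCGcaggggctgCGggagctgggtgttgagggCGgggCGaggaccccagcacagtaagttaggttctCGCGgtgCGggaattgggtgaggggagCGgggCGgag
The Nfix start shown is the one with the most CpG of the 4, whose windows of 250 bases hold 1, 7, 4 and 11. The Rfesd window shown holds 17, and that of another annotated start in the same domain, not shown, holds 22.

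Most domains lay at genes. Of the 701, 565 held an end of a protein-coding gene (80.6%, 77.5 to 83.4%), against 34.8% of all wild-type peaks and 74.5% of those of 2 to 5 kb. The gene table gives no strand, so either end of a gene counts here. Another 114 domains (16.3%) lay inside a gene without reaching its ends, and 63 of these held an annotated internal start. Only 22 (3.14%) lay outside protein-coding genes, and 16 of those held an end of a noncoding gene. When genes were moved by 20 kb in either direction, 134 domains held a gene end both times, which ties the coordinates to GRCm38. Among the 57 domains of 10 kb or more, 66.7% held a gene end (53.7 to 77.5%), and several of the longest lay within large genes such as Nfix, Tbx15 and Aopep.

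In all, 744 protein-coding genes had an end inside a domain, 3.4% of the 21883 in the table. By kind of gene the share was 1.33% of 12727 lncRNA genes, 2.36% of 1228 microRNA genes, 4.55% of 1340 snoRNA genes and 6 of 9944 pseudogenes. A domain often held more than 1 gene: 154 held ends of at least 2 protein-coding genes, 23 of at least 3, and the most was 5. Both domains with 5 genes lay over histone genes on chromosome 13, at H2ac12, H2bc12, H4c9, H2ac11 and H2bc11 and at H2ac8, H2bc8, H2bc7, H2ac7 and H3c4. There were 4 domains on chromosome X and none on Y. Of the 701, 34 lay within 10 kb of another domain.

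Grouped by function, domains were found in most lists, with the highest shares at housekeeping genes and at genes that respond early to stimulation. Of 30 housekeeping genes 12 had an end in a domain (40.0%, 24.6 to 57.7%), among them Gapdh, Actb, Eef1a1 and Polr2a, the largest subunit of RNA polymerase II. Of 28 immediate early genes, which cells switch on within minutes of a signal, 11 did (39.3%, 23.6 to 57.6%), including Fos, Jun, Junb, Myc and Klf4. Cell cycle inhibitors and tumour suppressors followed with 5 of 14, among them Cdkn1b, Cdkn1a and Cdkn2c. Genes of the cartilage matrix and its regulators stood at 7 of 28 (25%, 12.7 to 43.4%), the same share as in the TGF-beta and BMP list. Cytosolic ribosomal protein genes stood at 7 of 30. These shares are set against the 3.4% of all protein-coding genes, and no test was made on them because the lists were chosen with results of these data known.

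Regulators of other lineages, such as transcription factors of neurons, gut or heart, are the textbook targets of H3K27me3 in cells that do not use them. None of 44 had an end in a domain, with a Wilson interval up to 8.03%, and 6 had a wild-type peak of any length at an end. None of 15 myogenic genes, 16 endothelial genes, 20 blood cell genes or 14 adipogenic genes had one either. The Wilson intervals reach up to 20.4%, 19.4%, 16.1% and 21.5% in these lists. The first of them had no wild-type peak at any gene end, whereas 8 of the 14 adipogenic genes had a shorter one. The peak lists hold no expression values, so they do not show which of these genes the cells used.

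**Figure D1:**
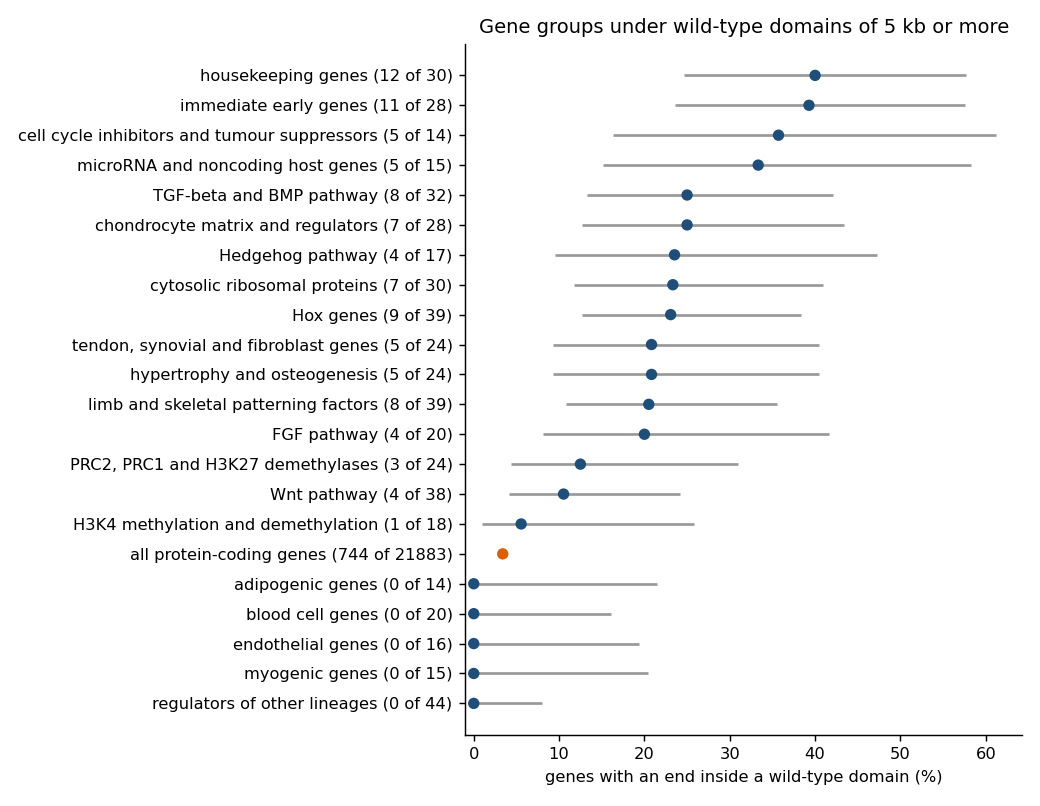
Share of the genes of each list with an end inside a wild-type domain of 5 kb or more (x axis, %), with 95% Wilson intervals as lines and the counts beside each name. Housekeeping and immediate early genes stand at 40.0% and 39.3%, all protein-coding genes (orange) at 3.4%, and 5 lists of other cell types at 0.

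The cartilage genes under domains were Col2a1, Trps1, Sox6, Col11a1, Sox9, Hapln1 and Acan. Col2a1, the main collagen of cartilage, had a domain of 16587 bp at chr15:97989326-98005912. It was covered over 100% in Ezh2-cKO, where the peak reached 3206 bp further, and over 99.99% in Utx-cKO, where it reached 9638 bp further. In Jmjd3-cKO 75.6% was covered, in 3 pieces of 2558, 2536 and 7451 bp. Col2a1 was thus the one member of its list with 3 pieces in any knockout, and its wild-type fold enrichment, 4.12, was below the domain median of 7.28.

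Trps1, a zinc finger repressor of hypertrophy, had a domain of 14625 bp, and its covered share was 100% in Ezh2-cKO and Utx-cKO and 99.7% in Jmjd3-cKO. Sox9, the master regulator of chondrocytes, had one of 7847 bp at chr11:112780172-112788018 that was covered over 100% in all 3 lists. The knockout peaks at Sox9 reached beyond it by 1082 bp for Ezh2-cKO, 1902 bp for Utx-cKO and 182 bp for Jmjd3-cKO. Sox6, a partner of Sox9, had a domain of 12211 bp covered over 95.1%, 95.5% and 94.2% in the same order. At Acan, the gene of the main cartilage proteoglycan, a domain of 5910 bp was covered over 100%, 100% and 90.3%, and the peak reached 3117 bp further for Ezh2-cKO, 3004 for Utx-cKO and 93 for Jmjd3-cKO. Hapln1, the link protein that binds aggrecan to hyaluronan, named after its values were seen, was covered over 100% of 7834 bp for Ezh2-cKO, 83.8% for Utx-cKO and 78.3% for Jmjd3-cKO. Col11a1, a collagen that nucleates cartilage fibrils, had 9980 bp, covered over 100%, 90.3% and 87.8%. Of the 7 cartilage domains 6, 3 and 0 were widened by at least 1 kb in Ezh2-cKO, Utx-cKO and Jmjd3-cKO, where all domains stood at 20.5%, 42.9% and 16.7%. The count in Utx-cKO is thus the overall share, and with 7 domains none of these counts was tested. In Jmjd3-cKO 2 of the 7 were split, against 12.7% of all domains.

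Domains at genes of hypertrophy and bone were Col1a2, Col1a1, Zfp521, Vegfa and Atf4, 5 of 24. Col1a1, the main collagen of bone and skin, repeated the pattern of values at Col2a1. Its domain of 9864 bp, with fold enrichment 3.67, was covered over 100% in Ezh2-cKO and Utx-cKO, with 3425 and 7412 bp beyond the edges, and over 81.7% in 2 pieces in Jmjd3-cKO. Col1a2, which encodes the partner chain, differed: 96.1% of 10561 bp was covered for Ezh2-cKO, 83.7% in 2 pieces for Utx-cKO and 89.3% for Jmjd3-cKO. Vegfa, the growth factor that brings vessels into hypertrophic cartilage, was covered over 100% of 7026 bp in all 3. Runx2, the regulator of bone formation and hypertrophy, had a peak of 3068 bp at a gene end, and the domain inside the gene was 5187 bp long at chr17:44733695-44738881. Ihh, the hedgehog ligand of prehypertrophic chondrocytes, had a wild-type peak of only 617 bp.

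Of tendon, synovial and fibroblast genes 5 of 24 had domains, at Fn1, Col3a1, Vim, Col5a1 and Scx. Fn1 (fibronectin) had 8663 bp, covered over 87.9%, 88.3% and 91.5% in Ezh2-cKO, Utx-cKO and Jmjd3-cKO. Vim, an intermediate filament gene of mesenchymal cells, was covered over 100% of 5986 bp, then 83.3% and 84.9%. Domains at fibroblast genes and at cartilage genes thus stood in the same list, and shares of other cells in the cultures were not tested.

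In the TGF-beta and BMP, Wnt, Hedgehog and FGF lists the domains lay at receptors, antagonists, downstream regulators and 2 ligands, Bmp5 and Fgf7. In the TGF-beta and BMP list 8 of 32 genes had one: the receptor Bmpr1a, the inhibitory Smads Smad6 and Smad7, the target genes Id2 and Id3, the corepressor Tgif1, the secreted antagonist Nog and 1 ligand, Bmp5. Bmpr1a had 8755 bp with fold enrichment 11.4, covered over 98.1% for Ezh2-cKO, 83.1% in 2 pieces for Utx-cKO and 82.1% in 2 pieces for Jmjd3-cKO. Id3 was split in Ezh2-cKO (80.8% of 8500 bp) and fully covered in the other 2 lists. In the Wnt list 4 of 38 had one, namely the receptors Fzd7, Fzd8 and Fzd2 and the transcription factor Tcf7l2, and no Wnt ligand did. Tcf7l2 had 9301 bp, covered over 83.7%, 100% and 88.1%.

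In the Hedgehog list 4 of 17 had one, the coreceptors Boc, Cdon and Gas1 and the transcription factor Gli3. Boc had 10727 bp, covered over 95.6% for Ezh2-cKO, 88.3% for Utx-cKO and 58.7%, in 2 pieces, for Jmjd3-cKO. Gas1, with fold enrichment 11.5, was covered over 100% of 5636 bp in each. In the FGF list 4 of 20 had one: the receptor Fgfr2, the feedback inhibitors Spry2 and Dusp6 and the ligand Fgf7. Fgfr2 was covered over 98.3%, 99.8% and 84.2% of 8961 bp, the last in 2 pieces.

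Of 39 limb and skeletal patterning factors 8 had a domain: Nfib, Shox2, Pitx1, Tbx18, Meis1, Zfhx4, Tbx4 and Tbx3. Shox2, a homeobox gene of the proximal limb, had 10496 bp that were covered over 100%, 98.6% and 98.2%, with 4085 bp beyond the edges in Utx-cKO. Pitx1, which specifies the hindlimb, had 8540 bp. The Pitx1 peak reached 249 bp further for Ezh2-cKO, 5181 for Utx-cKO and 4648 for Jmjd3-cKO. Tbx4, another hindlimb gene, named after its values were seen, showed 342, 6992 and 5624 bp.

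Hox genes, which set position along the body and limb axes, had 9 of 39 members with an end under 5 domains. The longest domain of all lay over Hoxc10, Hoxc9 and Hoxc8 at chr15:102959322-102993592 (34271 bp). Its covered share was 95.9% for Ezh2-cKO, in 2 pieces, 98.3% for Utx-cKO and 97.4% for Jmjd3-cKO. Hoxa9 and Hoxa10 shared 21937 bp at chr6:52219949-52241885, and the peak there reached 5721 bp further for Ezh2-cKO, 694 for Utx-cKO and 122 for Jmjd3-cKO. Further along the Hoxc cluster a domain of 5575 bp at Hoxc6 and one of 10860 bp at Hoxc5 and Hoxc6 were separate in wild type and in Utx-cKO. A single Ezh2-cKO peak at chr15:102997728-103015184 spanned both. In Jmjd3-cKO a peak at chr15:102997461-103012758 reached from the first into the second.

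Of the Polycomb and demethylase genes, Kdm6b, Ring1 and Phf1 had domains, 3 of 24. Kdm6b, which encodes Jmjd3, had 12350 bp at chr11:69408220-69420569, covered over 100% in every knockout. The peak there reached 2206 bp further for Ezh2-cKO, 15765 for Utx-cKO and 2195 for Jmjd3-cKO. In Utx-cKO this length takes in a second wild-type domain at Kdm6b, of 5279 bp at chr11:69393890-69399168, and a single peak spans both. Ezh2 had a shorter wild-type peak, of 2412 bp, at a gene end. Kdm6a had none at a gene end and one of 3727 bp inside the gene. A called peak does not show whether part of a gene is missing, so none of these checks a genotype label. Phf1, a PRC2 accessory protein, was covered over 68.9% of 6152 bp for Ezh2-cKO, 99.9% for Utx-cKO and 76.1% for Jmjd3-cKO. Setd1b was the only one of 18 genes for H3K4 methylation with a domain.

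The 12 housekeeping domains had a median covered share of 88.0%, 100% and 94.1% in the knockouts (Ezh2-cKO, Utx-cKO, Jmjd3-cKO), against 96.5%, 100% and 94.4% over all domains. Splits were counted at 4, 0 and 2 of them, where 14.7%, 8.27% and 12.7% of all domains were split. Polr2a had 6929 bp, covered over 74.7% in 2 pieces, 100% in 1 and 81.5% in 2. Rplp0, which encodes a ribosomal stalk protein, was covered over 82.0%, 100% and 100% of 7330 bp, and Gapdh, a glycolytic enzyme gene, over 94.3%, 94.8% and 86.0% of 6757 bp. The 11 immediate early domains stood at medians of 98.8%, 100% and 99.8%. Fosl2, an AP-1 subunit gene, had 12019 bp, covered over 90.5% in 2 pieces, 100% and 90.9%. Klf4 was covered over 99.5%, 86.8% and 99.8% of 7003 bp. Of the cell cycle inhibitors, Cdkn1b had 9991 bp, covered over 99.6%, 100% and 99.2%, and Cdkn1a had 7505 bp, covered over 78.6% in 2 pieces, 99.1% and 93.4%. The 7 ribosomal protein domains had medians of 99.0%, 100% and 97.4%.

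Besides the Hox, Nfix, Tbx15 and Col2a1 domains, the 20 longest held Tns2 with Eif4b, Ctdsp2, Trps1, Mab21l2, Nfib, Slc7a5, Wwp2, Thra, Tnrc18, Aopep, Nfe2l1 and Irf2bp2. One of them, 25110 bp at chr15:85663911-85689020, held no protein-coding or noncoding gene end, and its nearest protein-coding gene, Ppara, lay 45890 bp away. It was covered over 100%, 100% and 99.8%, with 5195 bp beyond the edges in Ezh2-cKO and 8420 in Utx-cKO. The domain of Malat1, an abundant nuclear lncRNA, spanned 13127 bp and was covered over 94.1%, 100% and 89.2%. Neat1, the lncRNA on which paraspeckles form, had 9554 bp, fully covered in each list, with 5247, 6893 and 3514 bp beyond the edges in Ezh2-cKO, Utx-cKO and Jmjd3-cKO. Of the 22 domains outside protein-coding genes 13 held a lncRNA end, also at Mir22hg, Dleu2, Lncpint and Chaserr, and 2 held clusters of tRNA genes.

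All 701 domains were overlapped by a peak in each of the 3 knockout lists, against 80.7% of all wild-type peaks for Ezh2-cKO, 87.3% for Utx-cKO and 75.8% for Jmjd3-cKO. Peaks of 2 to 5 kb stood almost as high, at 99.6%, 99.8% and 99.4%. Counted in bases, 91.3% of the domain length was covered for Ezh2-cKO, 94.8% for Utx-cKO and 90.3% for Jmjd3-cKO. Domains covered over at least 90% of their length made up 65.3% for Ezh2-cKO (61.7 to 68.8%), 78.6% for Utx-cKO (75.4 to 81.5%) and 63.1% for Jmjd3-cKO (59.4 to 66.5%). The same shares over all wild-type peaks were 51%, 67.1% and 45.5%, and over peaks of 2 to 5 kb 67.7%, 81.7% and 63.7%. At this measure the domains therefore stood near the next shorter class in each list. The median domain was covered over 96.5%, 100% and 94.4%. Under 50% cover was seen in 3 domains for Ezh2-cKO, 1 for Utx-cKO and 6 for Jmjd3-cKO. A set of 325 domains (46.4%) was covered over at least 90% in all 3 lists and a set of 81 (11.6%) in none.

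**Figure D2:**
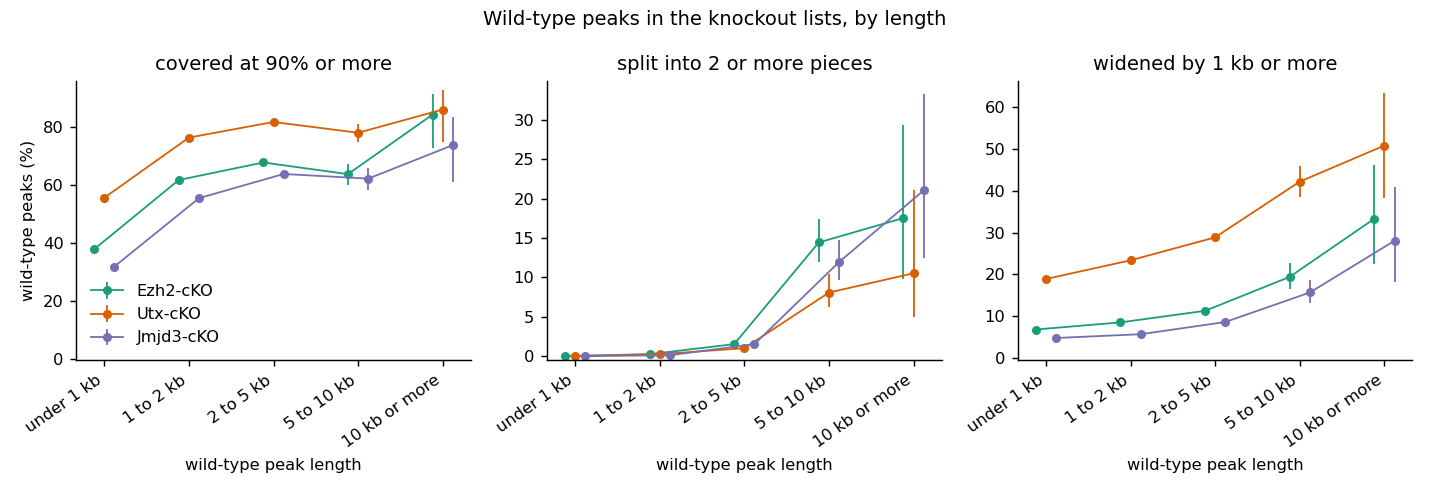
Share of wild-type peaks (y axis, %) in 5 classes of length (x axis) that each knockout list covers over 90% or more, splits into 2 or more pieces, or exceeds by 1 kb or more, with 95% Wilson intervals as vertical lines. In the class of 10 kb or more the share split is 17.5%, 10.5% and 21.1% in Ezh2-cKO, Utx-cKO and Jmjd3-cKO. In the class of 1 to 2 kb it is 0.246%, 0.246% and 0.109%. Utx-cKO has the highest share widened in every class.

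The least covered domains differed between the lists, with some overlap. In Ezh2-cKO the lowest shares were 38.6% at Nmt1 and Dcakd, 41.5% inside Rpl5, a ribosomal protein gene, 46.4% at Nt5dc3, 54.5% at Cnbp and 54.7% at Fem1a. In Utx-cKO they were 30.9% at Rfesd, 52.8% at Nt5dc3, 58.6% at the translation factor gene Eif4e2, 59.5% at Sec61a1, which encodes the channel of the endoplasmic reticulum, and 60.2% inside Asb4. In Jmjd3-cKO they were 25.1% at Rfesd, 36.7% at Tnfsf13 and Senp3, 44.6% at the chaperone gene Hsp90ab1 with Slc35b2, 46.7% inside Synpo and 46.9% at Ncl, which encodes nucleolin. Rfesd and Nt5dc3 each stood among the lowest 5 in more than 1 list. At Rfesd the wild-type domain of 6434 bp, chr13:76016783-76023216, kept a peak of 1991 bp in Utx-cKO and of 1618 bp in Jmjd3-cKO, both over the promoter printed above. In Ezh2-cKO there were 2 peaks, of 2864 and 2524 bp. At Ncl the covered share was 58.3% in Ezh2-cKO and 62.5% in Utx-cKO, so that this domain was short of cover in all 3 lists.

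Other genes among the 81 domains below 90% in every list were named after their values were seen. They include Jun (78.1%, 87.1% and 77.4% in Ezh2-cKO, Utx-cKO and Jmjd3-cKO), Btf3 (63.9%, 64.8% and 66.3%), the actin nucleator gene Actr3 (61.1%, 61.5% and 74.5%) and the splicing factor genes Srsf1 and Srsf2. At Jun and Btf3 a single peak was left in each list and reached beyond neither edge.

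Splitting into at least 2 pieces was seen in 103 domains for Ezh2-cKO (14.7%, 12.3 to 17.5%), 58 for Utx-cKO (8.27%, 6.45 to 10.5%) and 89 for Jmjd3-cKO (12.7%, 10.4 to 15.4%). Over all wild-type peaks the shares were 0.756%, 0.485% and 0.67%, and over peaks of 2 to 5 kb they were 1.52%, 1.00% and 1.52%. No domain fell into more than 3 pieces, and 3 pieces were seen in 5, 2 and 3 domains. The gaps were short: their median was 1152 bp for Ezh2-cKO, 1208 for Utx-cKO and 1317 for Jmjd3-cKO, and the widest was 3535 bp. The smallest distance between any 2 neighbouring peaks in these lists was 925, 896 and 985 bp, so a shorter dip in signal does not show as a split. Short peaks therefore leave little room for a gap. The domains were chosen by their length, and the part of length in their higher share was not tested. The longest piece made up a median of 62.0%, 68.5% and 60.7% of a split domain. With peaks of q of 0.001 or less the shares were 8.56%, 4.14% and 6.70%. At Col2a1 the fold enrichment in Jmjd3-cKO was 2.78 and 2.67 in the shorter pieces and 6.79 in the longest.

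Most domains, 533 (76.0%), were split in no list, and 18 were split in all 3. The 18 were named after their values were seen. The longest of them was the histone cluster at H2ac12, of 9810 bp, covered over 67.4%, 64.5% and 63.1% in Ezh2-cKO, Utx-cKO and Jmjd3-cKO. The others with gene ends were Rack1 with Trim41, Spty2d1, Txndc12 with Btf3l4, Cilk1 with Fbxo9, Cnbp, Nfe2l2, Dse, Nmt1 with Dcakd, Crim1, Cflar, Trp53bp2 and Dctn4. A further 4 lay inside Pacsin2, Cpeb3, Mier1 and Ell2, and 1 over tRNA genes on chromosome 11. Rack1 encodes a ribosome-bound scaffold, and Nfe2l2 the regulator of the oxidative stress response. The 3-piece domains in Ezh2-cKO lay at Fam53b, Rrbp1 and Dnaja2, inside Pacsin2 and on chromosome 13 outside protein-coding genes. In Utx-cKO they were the last of these and one inside Asb4, and in Jmjd3-cKO those of Col2a1, Fem1a and Ech1 with Hnrnpl.

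**Figure D3:**
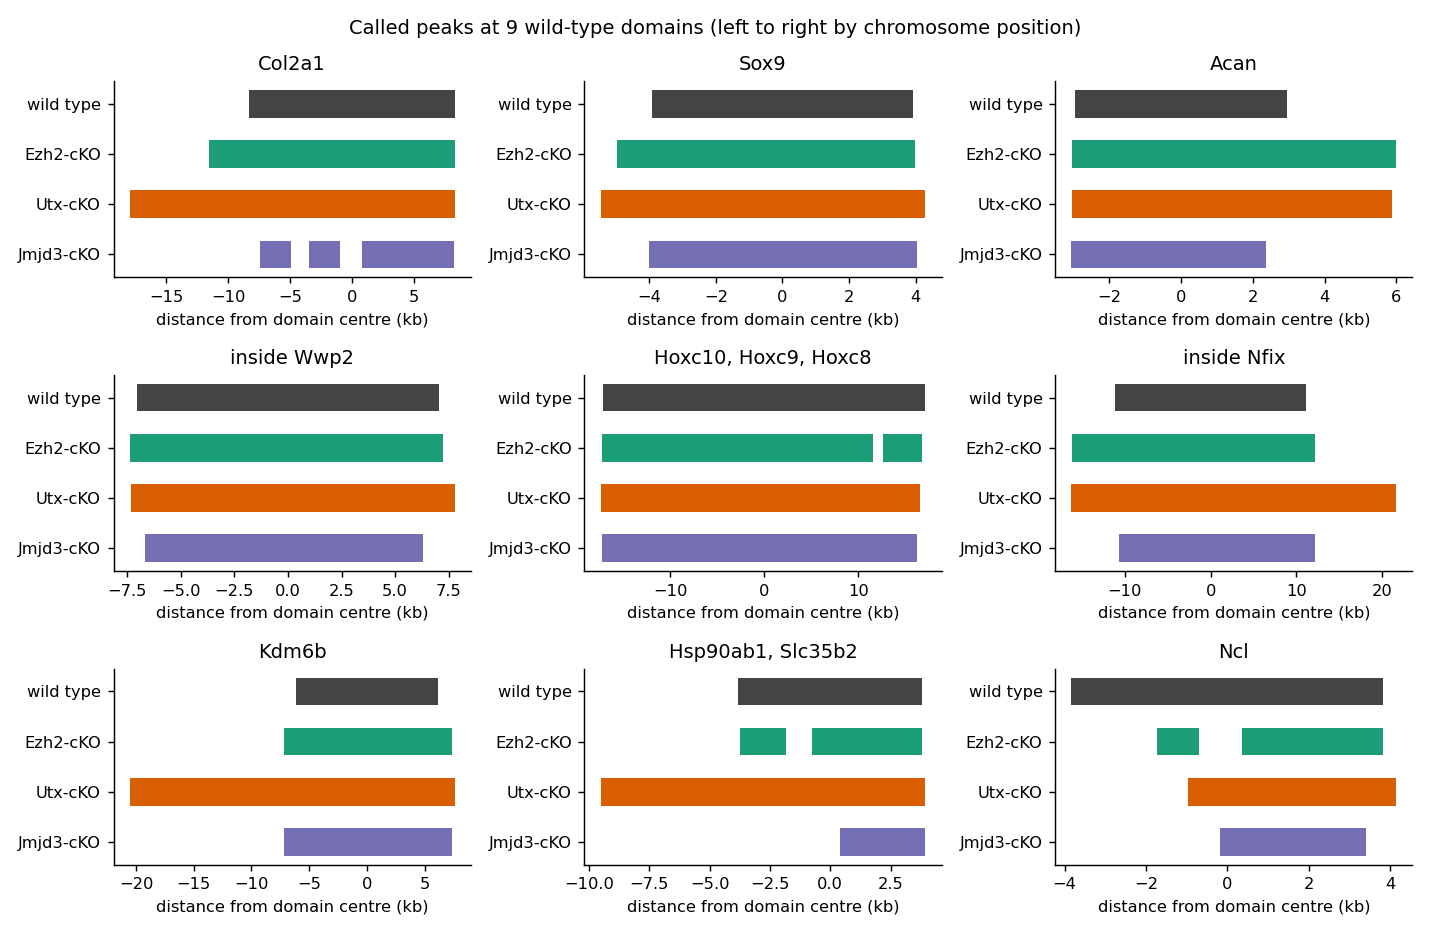
Called peaks (bars) of the 4 genotypes at 9 wild-type domains, by distance from the domain's centre (x axis, kb), left to right by chromosome position. The Jmjd3-cKO list has 3 pieces at Col2a1, the Utx-cKO list reaches 15765 bp beyond the edges at Kdm6b, and the Jmjd3-cKO peaks at Hsp90ab1 and Ncl cover 44.6% and 46.9% of the domain.

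Widening, knockout peaks reaching at least 1 kb beyond the edges of a domain on both sides together, was seen in 144 domains for Ezh2-cKO (20.5%, 17.7 to 23.7%), 301 for Utx-cKO (42.9%, 39.3 to 46.6%) and 117 for Jmjd3-cKO (16.7%, 14.1 to 19.6%). Over all wild-type peaks the shares were 8.55%, 22.8% and 6.13%, and over peaks of 2 to 5 kb 11.3%, 28.9% and 8.61%. A fixed limit of 1 kb is a smaller part of a long peak than of a short one. In bases, with each knockout peak counted once and the bases of all domains left out, 469.5 kb lay beyond the edges in Ezh2-cKO against 419 kb of domain left uncovered. In Utx-cKO it was 1255 kb against 249 kb, and in Jmjd3-cKO 389 kb against 469 kb. Most of this added length lay outside every wild-type peak (81.4%, 80.5% and 77.6%). The median ratio of knockout peak length to domain length was 0.99 for Ezh2-cKO, 1.08 for Utx-cKO and 0.98 for Jmjd3-cKO. For peaks of 2 to 5 kb the same ratio was 1.01, 1.12 and 0.99, so relative to length the domains did not stand higher. The Utx-cKO list was also the longest list, with 1885 peaks of 5 kb or more against 869 in Ezh2-cKO and 768 in Jmjd3-cKO. With only its 27013 strongest peaks, the number in the Jmjd3-cKO list, the share of domains widened was 42.2%. This cut drops weak peaks and shortens none of those kept, so the part of list length in widening was not tested.

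**Figure D4:**
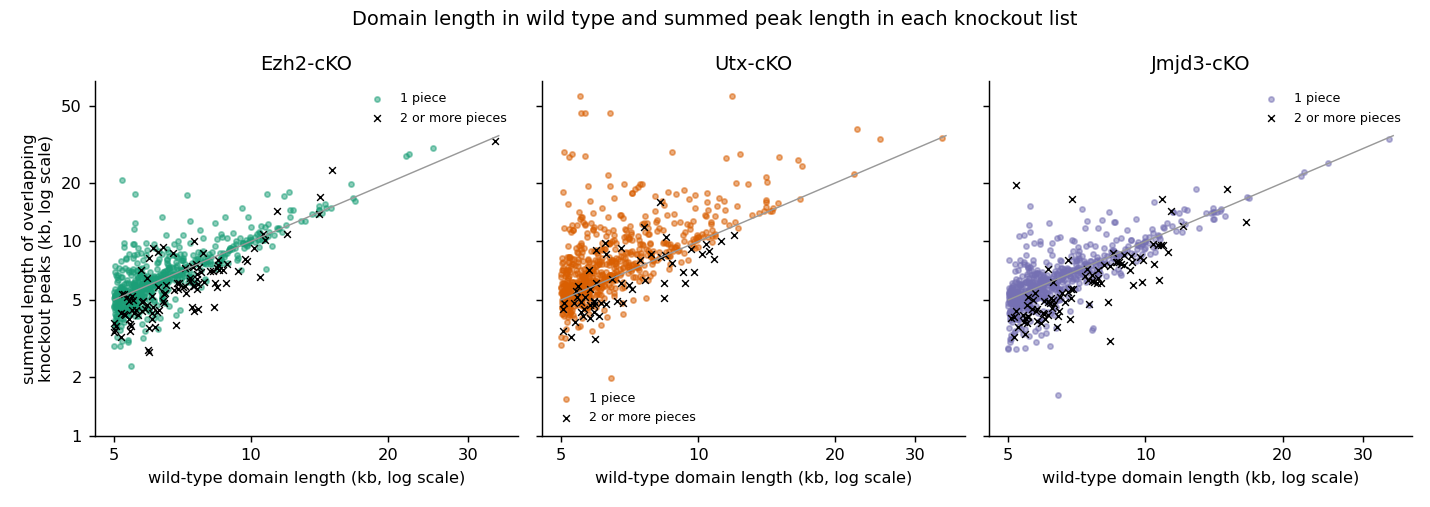
Length of each wild-type domain (x axis, kb, log scale) against the summed length of the peaks that overlap it in each knockout list (y axis, kb, log scale), with equal lengths on the grey line and split domains as crosses. In Utx-cKO 69.2% of the 701 points lie above the line, against 47.9% in Ezh2-cKO and 41.7% in Jmjd3-cKO.

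The widest Utx-cKO peaks joined neighbouring domains. A single peak of 56001 bp at chr8:84698318-84754318 covered both shorter domains of Nfix, a transcription factor gene of cartilage, muscle and brain, where the wild-type list held one of 5495 bp and one of 11836 bp. Another, of 45573 bp at chr10:80136593-80182165, spanned 3 domains at Midn and at the cold-inducible gene Cirbp. In Ezh2-cKO and Jmjd3-cKO these domains stayed under separate peaks. Over all domains the knockout peak also overlapped another wild-type peak at 58 domains for Ezh2-cKO (8.27%), 128 for Utx-cKO (18.3%) and 58 for Jmjd3-cKO (8.27%). The same count was not made for shorter wild-type peaks, so these shares do not show a trait of the domains. In Ezh2-cKO and Jmjd3-cKO the most widened was the domain at Spryd3 and Tns2, by 15618 and 15323 bp. There 1 peak reached back over the long neighbouring domain at Tns2 and Eif4b. A peak that spans several domains counts toward the widening of each.

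Widening in all 3 lists was found at 56 domains and in none at 350. Emilin1, an extracellular matrix gene, was widened by 9985 bp for Ezh2-cKO, 11277 for Utx-cKO and 7501 for Jmjd3-cKO. Zfp36, which encodes a protein that destabilises cytokine messages, showed 5448, 11798 and 4404 bp. Kdm6b and Neat1 belong to the same set. So do the proto-oncogene Ski, the myosin gene Myh9 and a domain inside Prrx1, a limb mesenchyme regulator, all 3 named after their values were seen. At Setd1b, an H3K4 methyltransferase gene, the lists differed more: the peak reached 548 bp further for Ezh2-cKO, 15327 for Utx-cKO and 2882 for Jmjd3-cKO. The one inside Klf3 was widened by 173 bp for Ezh2-cKO, 12824 for Utx-cKO and 11432 for Jmjd3-cKO.

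Between the 2 knockouts that share a title prefix, cover was higher in Utx-cKO than in Jmjd3-cKO at 429 domains, lower at 159 and equal at 113. This lean was not particular to domains. Median cover in Utx-cKO and Jmjd3-cKO was 99.8% and 86.7% over all wild-type peaks, and 100% and 94.7% over those of 2 to 5 kb. The libraries also differed in depth, with 34359111 and 25655346 fragments, and its part in the result was not tested. Seen from the other side, peaks of 5 kb or more in a knockout list were measured in the wild-type list. Of those in Ezh2-cKO 45.0% were covered over at least 90% in wild type, of those in Jmjd3-cKO 52.6%, and of those in Utx-cKO 15.4%. They were split in wild type in 21.1%, 19.9% and 31.0% of cases. Incomplete cover and splits were thus seen in whichever direction long peaks were chosen and measured. A longest piece that itself reached 5 kb was found for 526 domains for Ezh2-cKO, 600 for Utx-cKO and 527 for Jmjd3-cKO, and for 436 (62.2%) in all 3.

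The fold enrichment of the domains, the authors' value over input, had a median of 7.28 (2.42 to 18.4), against 3.31 for all wild-type peaks under 5 kb. A median for those of 2 to 5 kb is not given here. The peaks just under 5 kb, at Fscn1, Alkbh5 and Tmed2, stood at 7.28, 7.89 and 7.88. High fold enrichment is therefore not shown to be particular to domains. Within the domains fold enrichment did not follow length, with medians of 7.54, 7.36, 7.19 and 7.22 in 4 groups of nearly equal number from the shortest to the longest. Widening was less frequent at the highest than at the lowest fold enrichment in each list. Between the groups of lowest and of highest fold enrichment, again of 4, the share widened went from 28.4% to 10.3% for Ezh2-cKO, from 56.3% to 30.9% for Utx-cKO and from 20.5% to 15.4% for Jmjd3-cKO. In Jmjd3-cKO the middle groups stood at 17.7% and 13.1%, so the fall there was not steady. Cover of at least 90% went from 74.4% to 54.9% for Ezh2-cKO and from 85.8% to 70.3% for Utx-cKO. For Jmjd3-cKO it was 63.6% and 61.7%. Splitting in Jmjd3-cKO went from 22.2% to 6.29%, whereas in Utx-cKO it was 9.09% and 9.14%. The domains with the highest fold enrichment lay at Fbxo11, Arid1b and Cdk13 (18.4, 17.8 and 16.7), chosen after their values were seen.

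Domains extended into the gene rather than upstream of it. This was measured at the 305 domains with a single protein-coding gene whose strand and start the RefSeq promoter table gives. They reached a median of 1234 bp upstream of the start and 4741 bp downstream, and the downstream arm was the longer in 282 of 305 (92.5%, 88.9 to 94.9%). Peaks of 2 to 5 kb leaned the same way, with 761 bp upstream, 1938 bp downstream and a longer downstream arm in 91.7% of 2684. The start itself was covered in 304 of 305 domains in Ezh2-cKO and in all 305 in Utx-cKO and Jmjd3-cKO. In peaks of 2 to 5 kb it was covered nearly as often, in 99.5%, 99.7% and 99.0%. Cover was lower away from the start on both sides. At 2500 bp upstream, which 49 domains reach, it was 77.6%, 91.8% and 83.7% in Ezh2-cKO, Utx-cKO and Jmjd3-cKO. At 2500 bp downstream, which 291 reach, it was 91.4%, 96.6% and 93.8%. Further downstream the decline was not steady. At 4500 bp 76.8% of the 177 domains that reach so far were covered for Ezh2-cKO, 85.9% for Utx-cKO and 72.9% for Jmjd3-cKO. At 6250 bp, which 57 domains reach, the shares were 91.2%, 93.0% and 89.5%. Fewer domains enter at each further distance. The downstream edge was covered in 46.9%, 65.6% and 43.6% of domains and the upstream edge in 57.7%, 73.1% and 51.1%. For peaks of 2 to 5 kb these were 49.7%, 67.2% and 48.9% downstream and 54.7%, 69.7% and 49.3% upstream. Widening by at least 1 kb was on the downstream side in 29, 88 and 24 of the 305 domains and on the upstream side in 14, 42 and 8.

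**Figure D5:**
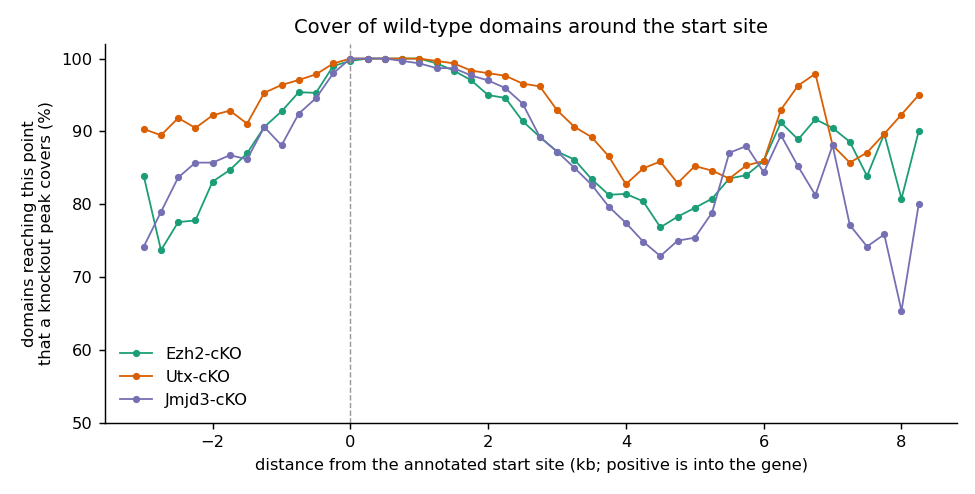
Share of wild-type domains that a knockout peak covers (y axis, %, starting at 50) by distance from the annotated start (x axis, kb, positive into the gene), over domains reaching that point (at least 20 at each point, of 305). Cover is 99.7% to 100% at the start, 72.9% to 85.9% at 4500 bp downstream and 89.5% to 93.0% at 6250 bp, over fewer domains.

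Promoters under domains were rich in CpG. Over 777 starts in domains the 300 bases around the start (250 before to 50 after) held a median of 24 CpG, against 25 at starts in peaks of 2 to 5 kb and 3 at starts without a wild-type peak. The GC box GGGCGG, searched on both strands, was found in 67.4% of them, against 46.2% of all 21262 promoters in the table and 72.2% of those in peaks of 2 to 5 kb. The TATA motif TATAAA was found in 8.75%, against 12.6% of all promoters, 4.96% in peaks of 2 to 5 kb and 21.1% without a peak. The letters of 3 further motifs, AACAAT (the Sox core), TGTGGT (the Runx core) and TGANTCA (the AP-1 site), were found in 4.12%, 8.49% and 4.12% of domain promoters, against 4.69%, 9.14% and 3.67% in peaks of 2 to 5 kb and 9.05%, 15% and 6.99% of all. A match is a description of the letters in this window only.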

How the data were processed

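The authors' 4 broad peak lists, 1 per genotype, were used. Per the file headers, each list was called with MACS 2.1.2 from paired-end fragments against the input of the same genotype, with q and broad thresholds both at 0.05. The headers also state that 1 duplicate per position was kept and that the larger library was scaled to the smaller. In these deposited lists the authors give each peak's length in bp, its fold enrichment (a ratio over local input), its pileup (a coverage signal) and −log10 values of p and q. Pileup was not compared between libraries. The submitters' processing notes name Bowtie2, MACS2, ChIPseeker, deepTools 2.4.1, HOMER 4.10 and FastQC 0.11.5. Build and aligner version are not given in the sources here, and the build was settled by moving genes by 20 kb.

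For each domain the covered share of its bases, the number of overlapping peaks (from 1 bp) and the bases beyond its edges were computed per knockout. Gene positions were those of RefSeq's GRCm38.p6 table, which gives no strand, so the planned fallback of either gene end was used. Strand and starts were known for 17491 of 21883 genes (79.9%), and for 594 of the 744 genes with an end in a domain. All 529 entries of 21 gene lists matched, 1 of them through a synonym. The members and lists were chosen with earlier results of these data known.

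Named were the 20 longest domains, per knockout the 5 lowest in cover, highest in pieces and widest, up to 4 genes per list, 3 peaks on each side of the length limit, and Sox9, Col2a1, Acan, Runx2, Ihh, Ezh2, Kdm6a and Kdm6b. Other list members were named to complete the counts. Some genes that the rule names are left out of the text. The RefSeq promoter table was matched by symbol. The alternatives were q of 0.001 or less, equal numbers of peaks, merging within 1 kb, an overlap of 50% of the shorter peak, domains of 10 kb or more, autosomes only, and other gene windows. The steps recovered all 700 simulated domains (100%). Computation used matplotlib 3.10.9, scipy 1.17.1, pandas 2.3.3 and numpy 2.4.6 under Python 3.11.15.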

Additional observations from a re-analysis of the deposited data

How the results depend on the processing

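Of the alternative values of the shares for cover, splitting, widening and gene ends, 43 stayed within the 95% interval of the share reported and 18 did not. With only the 57 domains of 10 kb or more, cover of at least 90% was 84.2% for Ezh2-cKO, 86.0% for Utx-cKO and 73.7% for Jmjd3-cKO, widening was 33.3%, 50.9% and 28.1%, splitting was 17.5% in Ezh2-cKO and 21.1% in Jmjd3-cKO, and 66.7% held a gene end. Splitting moved most with the calls: at q of 0.001 or less it was 8.56% for Ezh2-cKO, 4.14% for Utx-cKO and 6.70% for Jmjd3-cKO. After merging peaks within 1 kb it was 11.6% in Ezh2-cKO and 6.28% in Utx-cKO. In Utx-cKO it was 4.71% with equal numbers of strongest peaks and 5.71% when an overlap had to reach 50% of the shorter peak. Gene ends stood at 84.9% of domains with a window of 2 kb and at 96.9% when any overlap with a gene counted. Counting widening only over bases outside every wild-type peak, an alternative chosen after seeing the data, gave 20.3%, 42.9% and 16.5%. No paired analysis was possible because each genotype has 1 library. The lists were called at different depths, and the part of depth in cover, splits and widening was not tested.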
